A study of Homo sapiens with 6 samples.

Results

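The genes described here were the 10 regulators and targets of NRF2 given by the symbols NFE2L2, KEAP1, NQO1, HMOX1, GCLC, GCLM, TXNRD1, SRXN1, OSGIN1 and FTH1, of 54259 gene symbols in the count table. All 10 symbols were found, and all 10 passed the filter on low counts, as did 15277 genes in all. RNA-Sequence was performed on MDA-MB-231 cells, an established human breast cancer cell line that lacks estrogen and progesterone receptors, in 3 libraries of shBry cells, carrying a short hairpin RNA named for brachyury, and 3 libraries of shNC cells, carrying the control hairpin. The study asked what knockdown of the transcription factor brachyury does to the transcriptome of these cells. No further treatment is given for either group. The sources used here do not say whether the hairpin cells were clones or pools, or whether libraries of a group came from separate cultures. The p-values therefore set a group difference against variation between these libraries only.

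NRF2, the product of NFE2L2, is a basic leucine zipper transcription factor that turns on antioxidant and detoxifying enzymes. In unstressed cells KEAP1 binds NRF2 and presents it to a CUL3 ubiquitin ligase, which leads to its degradation. Oxidants and electrophiles modify cysteines of KEAP1, NRF2 then accumulates and binds, with a small MAF protein as partner, to antioxidant response elements near its targets, sites that the repressor BACH1 also occupies. Because this control acts largely on the NRF2 protein, the RNA of NFE2L2 does not measure the activity of NRF2.

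Brachyury, listed as T, had 0 counts in all 6 libraries, and 3 counts correspond to between 0.131 and 0.155 CPM in these libraries (CPM, counts scaled to a library total of 1e6), so the knockdown could not be checked on its target. Between 19319411 and 22985371 reads were counted per shBry library and between 19684251 and 21718591 per shNC library. The first principal component held 75.7% of the variance and separated the groups, and the mitochondrial share of counts was 5.53% to 5.77% in shBry and 6.48% to 7.04% in shNC. Summed levels of VIM, CD44, AXL, CAV1 and MSN, which are high in this cell line, were 6517 to 6742 CPM in shBry and 7528 to 7861 CPM in shNC. Within this sum, CAV1 went from a mean of 189 CPM in shNC to 87.6 CPM in shBry (log2 -1.11). VIM (-0.27) and MSN (-0.47) were also lower in shBry, while CD44 (0.34) and AXL (0.33) were higher. Of 6 genes that are low or absent in this line, ESR1, PGR and CDH1 had 2, 1 and 4 counts in total. The other 3 were detected, EPCAM with means of 1.55 CPM in shNC and 4.28 CPM in shBry (log2 1.47, edgeR adjusted p = 0.000337), CLDN3 at 1.69 to 3.31 CPM and CLDN4 at 2.82 to 5.41 CPM, and the summed level of the 6 was 7.41 to 10.5 CPM in shNC and 8.77 to 10.1 CPM in shBry. The study's design text calls the RNA pericardial. Of 6 cardiac muscle genes, MYH6, MYH7 and NPPA were at 0 in all libraries. TNNT2, TNNI3 and ACTN2 had 2, 84 and 21 counts in total, and TNNI3 reached at most 0.927 CPM in any library. The mesothelial gene ITLN1 was at 0 in all libraries. The other 5 mesothelial genes checked (MSLN, WT1, UPK3B, LRRN4 and CALB2) brought the summed level of that list to 40.2 to 42.1 CPM in shNC and 51.4 to 57.7 CPM in shBry. In every library, 6 of 7 leukocyte genes and 5 of 6 fibroblast genes of the other marker lists were at or under 1 CPM. The same held for 3 of 4 endothelial genes. The remaining genes of these lists were CD68 at 371 to 433 CPM, COL1A1 at 18.98 to 23.4 CPM and KDR at 0.861 to 3.57 CPM. The part of these marker genes in the results was not tested.

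Antioxidant response elements are commonly written around the core TGACNNNGC, in which N is any base. The core was searched on both strands in the RefSeq promoter windows (GRCh38.p14, from 250 bases before to 50 bases after the gene start), which held 8 of the 10 genes in 11 windows. HMOX1 and FTH1 had no entry. The core was present in 4 of the 11 windows, belonging to KEAP1, GCLM and TXNRD1, and in 14.7% of the 15282 windows of tested genes (13.3% of all 35116 windows). The longer string TGACTCAGC was in none of the 11 windows and in 0.561% of all windows, and TGACTCA, the string known as the AP-1 site, was in the OSGIN1 window and in 4.95% of all windows. These strings can overlap, since TGACTCAGC holds both TGACTCA and the core. The stretches around the matches are shown so that the letters can be set beside the RNA values of the same genes, with each match in capitals, read 5′ to 3′ on the strand of the gene, and position -1 as the base before the gene start. They cover GCLM at chr1:93909431-93909580 (minus strand, positions -150 to -1), TXNRD1 at chr12:104215629-104215779 (plus strand, positions -150 to 1) and at its second promoter chr12:104286922-104286951 (plus strand), KEAP1 at chr19:10502787-10502816 (minus strand) and OSGIN1 at chr16:83953090-83953239 (plus strand, positions -150 to -1).
GCLM: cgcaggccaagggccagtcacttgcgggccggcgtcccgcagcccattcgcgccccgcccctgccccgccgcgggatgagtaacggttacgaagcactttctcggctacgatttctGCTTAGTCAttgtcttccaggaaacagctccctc
TXNRD1, first promoter: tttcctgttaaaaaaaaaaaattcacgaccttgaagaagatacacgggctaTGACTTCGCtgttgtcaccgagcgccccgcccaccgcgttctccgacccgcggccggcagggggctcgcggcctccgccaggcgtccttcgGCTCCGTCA
TXNRD1, second promoter: ggatttctGCTTTGTCAttctgactctggc
KEAP1: gggcgcccggctctGCTTAGTCAtggtgac
OSGIN1: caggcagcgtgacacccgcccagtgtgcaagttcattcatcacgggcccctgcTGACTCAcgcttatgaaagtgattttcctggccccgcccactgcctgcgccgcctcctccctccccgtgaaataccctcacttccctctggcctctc
GCLM and KEAP1 held the same core letters, GCTTAGTCA on the gene's strand, at positions -34 to -26 and -31 to -23. KEAP1 held a second core at -54 to -46, TGACACGGC, just upstream of the stretch shown. The first TXNRD1 promoter held the core at -99 to -91 and, on the opposite strand, at -8 to 1. The NFE2L2, NQO1, GCLC, SRXN1 and OSGIN1 windows held no core, which says only that these letters were not in these windows.

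The comparison of shBry with shNC gave higher RNA levels for the factor and for part of its targets. OSGIN1, NFE2L2 and FTH1 rose, by 1.26, 0.72 and 0.69 on the log2 scale, and no member was called lower by the rule given below. HMOX1, TXNRD1, GCLC and SRXN1 were also higher in this fit, with log2 differences from 0.22 to 0.52 that stayed under the fold limit. NQO1, GCLM and KEAP1 did not pass the test. SRXN1 passed it in only some of the other fits described below. A gene was called when its Benjamini-Hochberg adjusted p over all 15277 tested genes was below 0.05 in edgeR's quasi-likelihood test and its fold change exceeded 1.5. With 3 of 10 members called, the share was close to the 32.4% of all tested genes that were called. By direction, the 3 called members were all higher in shBry, where 17.1% of tested genes were called higher, and 0 of 10 were called lower, against 15.2%. At an adjusted p below 0.05 with no fold limit, 7 of 10 members were higher and 0 lower in this fit, where 53.3% of tested genes passed in either direction, 28% higher and 25.3% lower. KEAP1 was lower at that threshold in 8 of 12 other fits. The 3 shBry values lay outside the range of the 3 shNC values for the same 7 members, all higher, against 59.5% of tested genes in either direction and 30.6% higher. The median log2 difference was 0.47 over the members and 0.03 over all tested genes. In bulk RNA, a change in the share of cells with a transcript and a change in RNA per cell cannot be told apart.

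**Figure D1:**
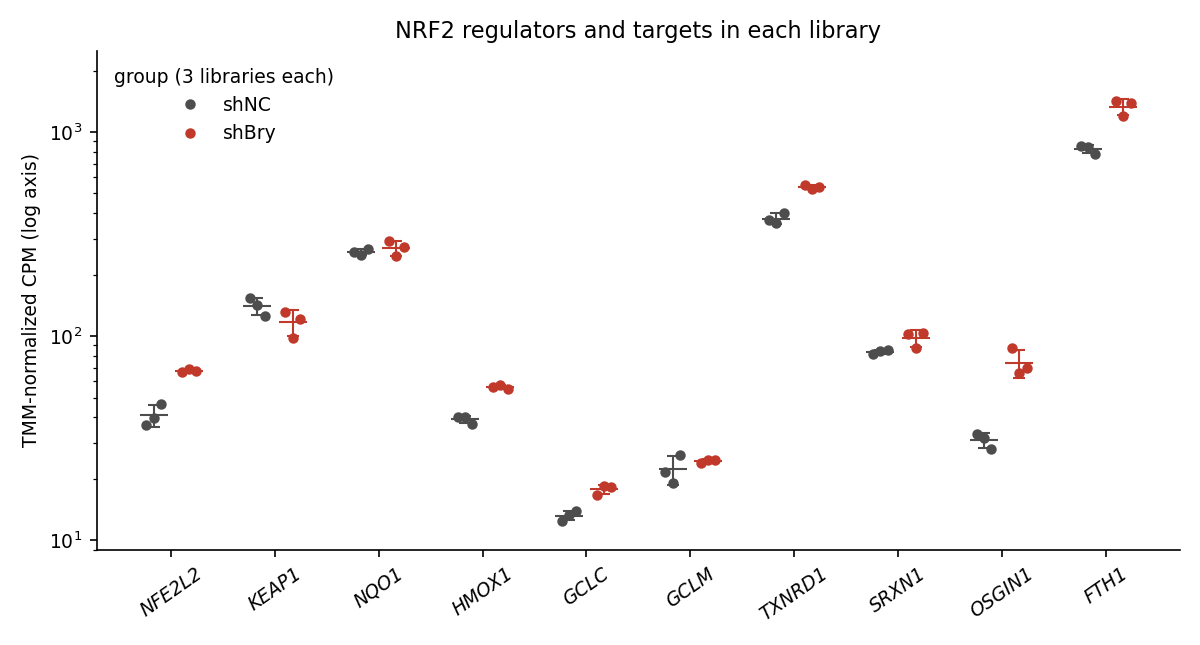
TMM-normalized CPM (log axis) of the 10 genes in each of the 3 shNC and 3 shBry libraries. Points are libraries, horizontal lines are group means and bars are SD. The shBry points of NFE2L2, HMOX1, GCLC, TXNRD1, SRXN1, OSGIN1 and FTH1 lie above all shNC points, whereas those of KEAP1, NQO1 and GCLM overlap with them.

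The transcription factor and its inhibitor were considered first. NFE2L2 (chr2:177227595-177392697, minus strand, GRCh38 with GENCODE 29, as for the genes that follow) was at 36.7, 39.8 and 46.4 CPM in shNC replicates 1 to 3 and at 66.8, 68.7 and 67.1 CPM in shBry replicates 1 to 3. The groups did not overlap, the 3 shBry libraries were nearly alike (coefficient of variation 1.51%), and the spread lay in shNC (12.2%). Group means were 40.9 ± 4.99 CPM in shNC and 67.5 ± 1.02 CPM in shBry (SD, n = 3 per group here and for all means below), and the rise of 0.72 ± 0.10 (SE) on the log2 scale had an edgeR adjusted p of 3.1e-05. Its 95% interval, 0.51 to 0.93, reached below the fold limit of 0.585 on this scale. Exons of other genes cover 20.9% of the exon bases of NFE2L2, and AGPS, the annotated coding gene among them, differed by 0.29 (adjusted p = 0.168).

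KEAP1 (chr19:10486120-10503741, minus strand), the sensor that holds NRF2 in check, was at 153, 143 and 125 CPM in shNC and at 131, 98.0 and 122 CPM in shBry. The groups overlapped, since shBry replicate 1 lay above shNC replicate 3. The means were 140 ± 14.0 and 117 ± 17.1 CPM, with a log2 difference of -0.26 ± 0.11 and an edgeR adjusted p of 0.0537. KEAP1 was the single member with a negative difference, and its adjusted p ranged from 0.00479 to 0.162 over 12 other fits, with differences of -0.37 to -0.17, always inside the fold limit. In 8 of these 12 fits the adjusted p of KEAP1 was below 0.05.

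Set against each other within a library, which removes the scaling of library sizes, the KEAP1 to NFE2L2 ratio of raw counts was 4.18, 3.59 and 2.70 in shNC and 1.96, 1.43 and 1.82 in shBry. The ratio was lower in all 3 shBry libraries than in any shNC library, with a mean log2 difference of -1.0 (SD 0.32 in shNC and 0.24 in shBry). The exact two-sided permutation test gave p = 0.1, the smallest value that 3 against 3 libraries allow, and 0.1 after adjustment over the 4 ratios compared, so this design cannot pass the threshold of 0.05.

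OSGIN1 showed the largest change among the 10 genes. It encodes an oxidative stress induced growth inhibitor and lies at chr16:83948282-83966332 on the plus strand. Its levels were 33.2, 31.5 and 28.0 CPM in shNC and 87.3, 65.6 and 69.7 CPM in shBry, so the lowest shBry library stood well above the highest shNC library. The mean rose from 30.9 ± 2.62 to 74.2 ± 11.5 CPM, a 2.40-fold change (log2 1.26 ± 0.12, edgeR adjusted p = 6.97e-07). This log2 difference lay at percentile 94.8 of all tested genes. OSGIN1 was also the most variable member in shBry, with a coefficient of variation of 15.5%, and 13.9% of its exon bases overlap another annotated gene on the same strand.

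HMOX1, FTH1 and the ferritin light chain gene FTL act on haem and iron. HMOX1 (chr22:35380361-35394214, plus strand) encodes haem oxygenase, which opens the haem ring and frees its iron. It was at 40.1, 40.0 and 37.1 CPM in shNC and at 56.1, 57.3 and 54.9 CPM in shBry, and the groups were far apart relative to the spread within each. The log2 difference was 0.52 ± 0.09 (1.44-fold, edgeR adjusted p = 0.000203), under the fold limit, so HMOX1 was not called.

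FTH1 encodes the ferritin heavy chain, the ferroxidase subunit of the iron storage shell, and lies at chr11:61959718-61967660 on the minus strand. It was at 851, 841 and 784 CPM in shNC and at 1420.2, 1193 and 1379 CPM in shBry, with the lowest value of shBry in replicate 2. The mean rose from 825 ± 35.9 to 1331 ± 121 CPM (log2 0.69 ± 0.08, 95% interval 0.51 to 0.87, edgeR adjusted p = 1.09e-05). Transcripts of 17 other genes, 15 of them pseudogenes, share 57.4% of the 50-base stretches of FTH1, and 62.4% of its exon bases overlap BEST1 on the opposite strand. BEST1, looked up for this overlap after the values of FTH1 were seen, had 0, 1 and 0 counts in shNC and 78, 108 and 79 counts in shBry, against 15660 or more FTH1 counts in every library. Whether reads were counted by strand is not given in the sources used here, and how reads were split between these genes was not tested.

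FTL, the partner chain of FTH1 and not itself a member, moved in the same direction, from 1678 ± 57.9 to 2841 ± 370 CPM (log2 0.76 ± 0.09, adjusted p = 1.16e-05). The FTL to FTH1 ratio was 2.03, 2.02 and 2.06 in shNC and 2.25, 2.06 and 2.08 in shBry. The groups did not overlap, but the highest shNC ratio and the lowest shBry ratio were the same at this rounding, and the mean log2 difference was 0.07 (exact permutation p = 0.1).

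The enzymes of the glutathione and thioredoxin branches moved less. GCLC (chr6:53497341-53616970, minus strand), the catalytic subunit of glutamate-cysteine ligase, which makes the first bond of glutathione, was at 12.5, 13.3 and 13.9 CPM in shNC and at 16.7, 18.4 and 18.1 CPM in shBry. All shBry libraries were above all shNC libraries, with a log2 difference of 0.43 ± 0.12 (1.34-fold, edgeR adjusted p = 0.00869), under the fold limit. Without shNC replicate 1 the adjusted p was 0.0503, the highest of a range from 0.00785 over the 12 other fits.

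GCLM (chr1:93885205-93909456, minus strand), the modifier subunit of the same ligase, was at 21.7, 19.1 and 26.3 CPM in shNC and at 24.01, 24.8 and 24.6 CPM in shBry. The shBry values fell within the range of shNC, where the coefficient of variation was 16.2%. The log2 difference was 0.13 with a 95% interval of -0.14 to 0.40 (edgeR adjusted p = 0.4). The number of GCLM counts per GCLC count was 1.74, 1.44 and 1.90 in shNC and 1.44, 1.35 and 1.36 in shBry, lower in shBry by a mean log2 difference of -0.28 (exact permutation p = 0.1), with shNC replicate 2 and shBry replicate 1 nearly touching.

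TXNRD1 (chr12:104215779-104350305, plus strand), the cytosolic thioredoxin reductase, was at 371, 358 and 402 CPM in shNC and at 550.4, 526 and 539 CPM in shBry. The groups were clearly apart, and the log2 difference was 0.51 ± 0.08 (1.43-fold, edgeR adjusted p = 6.43e-05), under the fold limit as for HMOX1. SRXN1 (chr20:646615-653370, minus strand), sulfiredoxin, which restores overoxidized peroxiredoxins, was at 81.5, 84.4 and 85.5 CPM in shNC and at 103, 87.0 and 104 CPM in shBry. The shBry libraries were all higher, replicate 2 only narrowly, and the log2 difference of 0.22 ± 0.09 had an edgeR adjusted p of 0.0466, which ranged from 0.00880 to 0.188 over the 12 other fits. This adjusted p was below 0.05 without TMM, with at least 10 counts in every library and without shBry replicate 2, but in none of the other fits. Of the SRXN1 exon bases, 85% overlap another annotated gene on the same strand. The SRXN1 to TXNRD1 ratio was 0.220, 0.236 and 0.213 in shNC and 0.186, 0.166 and 0.193 in shBry, lower in every shBry library, with a mean log2 difference of -0.30 (exact permutation p = 0.1).

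NQO1, the quinone reductase often used as the marker target of NRF2, was nearly level. It lies at chr16:69706996-69726951 on the minus strand and was at 257, 250.0 and 268 CPM in shNC and at 292, 246 and 272 CPM in shBry. The values overlapped at both ends, and the log2 difference was 0.06 with a 95% interval of -0.11 to 0.24 (edgeR adjusted p = 0.539). The interval lies inside the fold limit in both directions. The NQO1 difference stood at percentile 52.0 of all tested genes, compared with 85.7 for NFE2L2 and 84.8 for FTH1.

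**Figure D2:**
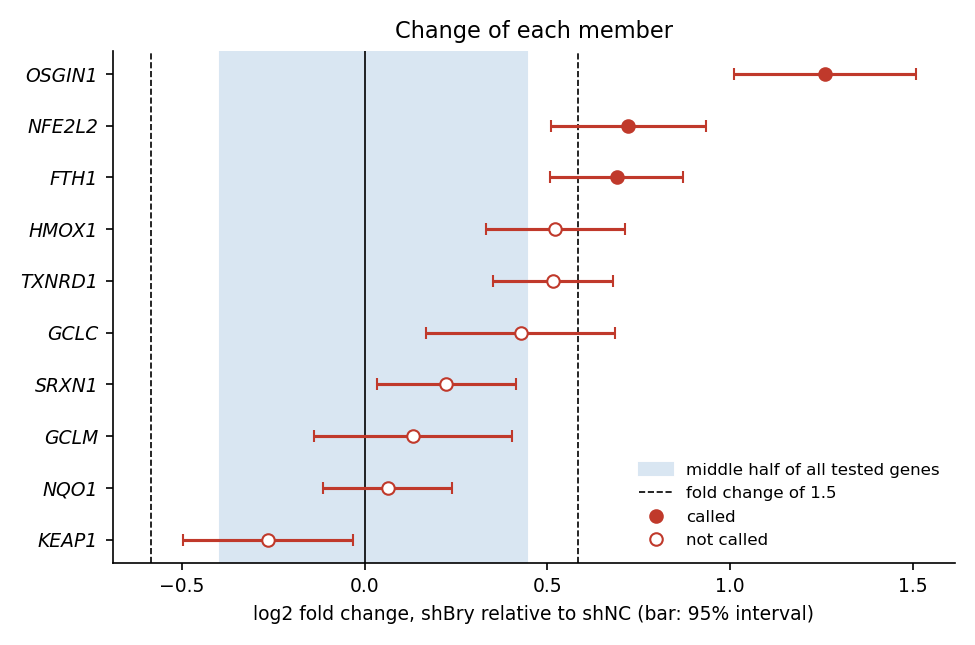
Log2 fold change of each gene in shBry relative to shNC (points) with 95% intervals (bars). Filled points were called, dashed lines mark a fold change of 1.5 and the band holds the middle 50 percent of all tested genes, -0.40 to 0.44. OSGIN1 stands clear of the fold limit, the intervals of NFE2L2, FTH1, HMOX1, TXNRD1 and GCLC cross it, and those of NQO1 and GCLM include 0.

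Among the shBry libraries, replicate 2 was the lowest for 6 members (KEAP1, NQO1, TXNRD1, SRXN1, OSGIN1 and FTH1) and the highest for the other 4 (NFE2L2, HMOX1, GCLC and GCLM). The 10 genes therefore did not shift together between libraries of a group. In shNC, replicate 3 was the highest for NFE2L2, NQO1, GCLC, GCLM, TXNRD1 and SRXN1 and the lowest for KEAP1, HMOX1, OSGIN1 and FTH1. The calls of the 10 genes were the same in each of the 6 fits that left out a library.

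Levels were compared between genes as CPM per kilobase of exon. In shNC the order was FTH1 (406.6), NQO1 (79.4), TXNRD1 (56.2), KEAP1 (37.3), SRXN1 (31.1), HMOX1 (16.3), OSGIN1 (8.94), NFE2L2 (6.85), GCLM (4.13) and GCLC (1.53), and no neighbours in this order overlapped between libraries. In shBry TXNRD1 (80.2, from 78.4 to 82.1) lay within the range of NQO1 (75.5 to 89.6), SRXN1 (32.3 to 38.5) overlapped with KEAP1 (26.1 to 34.9), and OSGIN1 (18.96 to 25.2) overlapped with HMOX1 (22.8 to 23.8). FTH1 at 656 remained the highest and GCLC at 2.05 the lowest of the 10. The exon length joins all annotated transcripts, so a level is understated where a long exon is little used. Other genes also overlap 85% of the SRXN1 exon bases and 62.4% of those of FTH1. What this overlap does to their levels and to the order was not tested.

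**Figure D3:**
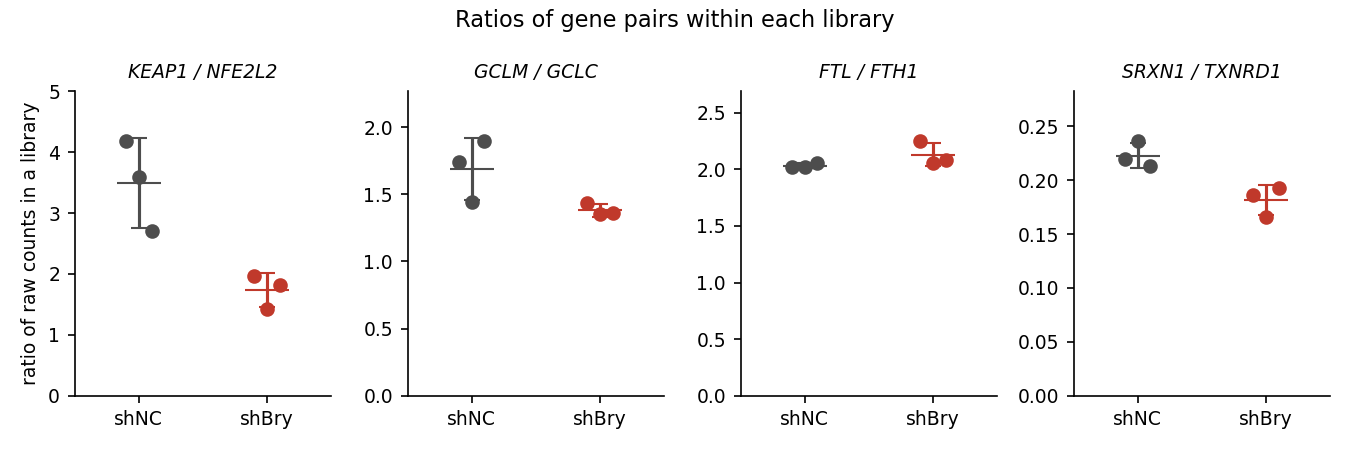
Ratios of raw counts of 4 gene pairs within each library (linear axes from 0), with points for the 3 libraries of each group, lines for means and bars for SD. KEAP1 per NFE2L2 falls between 2.70 and 4.18 in shNC and between 1.43 and 1.96 in shBry, while FTL per FTH1 spans only 2.02 to 2.25 over all 6 libraries.

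Other genes of the pathway were followed in 7 lists, 163 of 187 genes of which were tested. Together 57 were called, which is 35% against the 32.4% of all tested genes, with 26 higher and 31 lower and a median log2 difference of -0.03. The share called was thus near the background, and the lists differed in the direction of their calls.

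Of 22 genes that control NRF2 or partner with it, 10 were called, 7 higher and 3 lower (45.5%, median log2 difference 0.18). The small MAF genes, whose proteins pair with NRF2 and also with BACH1, were all higher: MAFF rose from 72.1 ± 4.47 to 252 ± 22.2 CPM (log2 1.80, edgeR adjusted p = 1.41e-09), MAFK by 1.24 and MAFG by 0.92. NFE2L1, a related factor that controls proteasome genes, rose from 523 ± 17.1 to 1285 ± 42.5 CPM (1.30, 6.4e-09 in the same test). BACH1, the repressor at the same sites, was at 19.8, 19.3 and 22.5 CPM in shNC and at 27.2, 38.1 and 30.9 CPM in shBry and rose by 0.65 (adjusted p = 0.000976), although without shBry replicate 2 the difference was 0.49, under the fold limit. SQSTM1, the autophagy adaptor that binds KEAP1, rose from 530 ± 31.1 to 913 ± 84.8 CPM (0.79), and the coactivator gene EP300 rose by 0.74. The 3 called falls were CUL3, CAND1 and GSK3B. CUL3, the scaffold of the ligase that marks NRF2 for degradation, went from 39.8 ± 7.75 to 22.4 ± 3.30 CPM (-0.83, adjusted p = 0.000292), CAND1, an exchange factor of such ligases, changed by -0.64, and GSK3B, a kinase that marks NRF2 for another ligase, by -0.73 (adjusted p = 2.33e-05). CAND1 was under the fold limit without shNC replicate 3 (-0.57) and without shBry replicate 1 (-0.56). Of other parts of ligases that act on NRF2, RBX1 (-0.21, edgeR adjusted p = 0.0994), BTRC (-0.10, 0.476) and SYVN1 (0.14, 0.203) were not called. DPP3, which also binds KEAP1, was at 88.4 and 85.8 CPM (-0.04, adjusted p = 0.704).

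Of 20 tested glutathione genes, 6 were called, 5 higher and 1 lower (30%, median 0.10). The rises were led by CHAC1, which breaks glutathione down (8.98 ± 0.288 to 116 ± 8.87 CPM, log2 3.69), and by both subunits of the cystine transporter, SLC7A11 (14.0 ± 2.91 to 69.8 ± 14.7 CPM, 2.32, edgeR adjusted p = 4.32e-08) and SLC3A2 (2.26). GSR, the reductase that regenerates glutathione, fell from 40.7 ± 1.41 to 24.7 ± 2.28 CPM (-0.72, adjusted p = 5.37e-05). GPX4, which reduces lipid peroxides, was at 864 and 837 CPM (-0.05, adjusted p = 0.7). The other called rises were OPLAH (0.73, edgeR adjusted p = 0.000386) and GLRX2 (0.70, adjusted p = 0.00589). GSS was lower but under the fold limit (-0.24, adjusted p = 0.0278). At an adjusted p below 0.05 alone, 7 genes of this list were higher and 5 lower. Without shNC replicate 1, 5 genes were called, 4 higher and 1 lower.

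Of 20 thioredoxin and peroxiredoxin genes, 7 were called, 3 higher and 4 lower (35%, median 0.02). TXNIP, which binds and inhibits thioredoxin, rose from 143 ± 10.4 to 1610 ± 180 CPM (log2 3.49, edgeR adjusted p = 6.23e-12), SESN2, a stress-induced sestrin, rose by 2.16, and TXNRD2, the mitochondrial counterpart of TXNRD1, by 0.88. PRDX1, an abundant cytosolic peroxiredoxin, fell from 597 ± 4.20 to 266 ± 30.1 CPM (-1.17, adjusted p = 9.28e-08), and PRDX2 fell as well (-0.80). SESN3 fell from 5.15 to 1.52 CPM (-1.76), and PRDX5 was at 230 and 244 CPM (0.08, adjusted p = 0.497).

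Detoxification genes were called in 15 of 37 tested cases, 4 higher and 11 lower (40.5%, median 0.02). Genes that fell included AKR1C3, an aldo-keto reductase (19.5 ± 1.94 to 7.48 ± 0.958 CPM, log2 -1.38), its relatives AKR1C1 (-1.19) and AKR1C2, which had at most 0.851 CPM in any library, and the glutathione transferase gene GSTM1 (53.4 ± 3.56 to 22.0 ± 2.81 CPM, -1.28). Transcripts of 6 other genes share 51.5% of the 50-base stretches of GSTM1, GSTM2 overlaps it, and its relatives GSTM2 and GSTM4 were also lower (-0.95 and -0.65), although GSTM2 was not called without shNC replicate 1 (-0.88) or shBry replicate 3 (-0.65), and how reads were divided among these genes is uncertain. Another relative, GSTM3, was at 50.9 and 48.0 CPM and was not called (-0.09, edgeR adjusted p = 0.475). The export pumps ABCC3 (9.44 ± 2.31 to 42.3 ± 1.95 CPM, 2.16) and ABCG2 (1.40 to 3.58 CPM, 1.35) rose. The other called rises were the aldo-keto reductase gene AKR1A1 (0.80) and the glutathione transferase gene GSTO2 (1.09). GSTP1 was at 491 and 459 CPM (-0.10, edgeR adjusted p = 0.355).

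Of 34 tested haem and iron genes, 11 were called, 4 higher and 7 lower (32.4%, median -0.08). Beside FTL, the metal transporter gene SLC39A14 rose from 70.7 ± 2.28 to 170 ± 9.64 CPM (log2 1.27), as did BLVRB, a biliverdin reductase (0.64), and SLC25A37, the mitochondrial iron importer (0.64). BLVRB was under the fold limit without shNC replicate 3 (0.54) and without shBry replicate 1 (0.55). Of the enzymes of haem synthesis 3 fell, ALAD from 78.7 ± 3.95 to 32.5 ± 1.07 CPM (-1.28), CPOX (-1.06) and PPOX (-0.61, or -0.57 and under the fold limit without shNC replicate 2 or shBry replicate 1), while ALAS1, UROS, UROD and FECH were not called, with log2 differences from -0.20 to -0.04. FLVCR2 fell from 1.43 to 0.569 CPM (-1.30, edgeR adjusted p = 0.0101), a call that was lost without shNC replicate 1 (adjusted p = 0.0539, the highest of a range from 0.00227 over the other fits). PCBP2, an iron chaperone, was at 453 and 536 CPM (0.24, adjusted p = 0.0164, under the fold limit).

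Of 18 tested genes listed under NADPH supply, 4 were called, 2 in each direction (22.2%, median -0.13). MTHFD2 of mitochondrial folate metabolism rose from 65.7 ± 2.37 to 273 ± 10.5 CPM (log2 2.05), and ME2, a malic enzyme, rose from 23.3 to 35.2 CPM (0.59), which is at the fold limit. ME2 was under the limit in 7 of the 12 other fits, with 0.57 to 0.58 in those without TMM, with DESeq2, with no filter and with at least 10 counts in every library, and with 0.52, 0.56 and 0.55 without shNC replicate 1, shNC replicate 2 and shBry replicate 2. The other malic enzyme genes, ME1 (0.33) and ME3 (-0.56), went in opposite directions and were not called. IDH2 and IDH1, the NADP-linked isocitrate dehydrogenases, fell, with log2 differences of -1.29 and -0.76, and TKT of the pentose phosphate pathway was at 756 and 572 CPM (-0.40, edgeR adjusted p = 0.0011, under the fold limit). Among 12 tested superoxide and peroxide genes, 4 were called, 1 higher and 3 lower (33.3%, median 0.11). SOD1, the cytosolic superoxide dismutase, fell from 207 ± 1.38 to 89.5 ± 8.65 CPM (-1.21), as did CAT, catalase (-0.61), and SOD3 (-0.66). The dismutase gene SOD2 went the other way, from 47.7 to 70.5 CPM (0.56, edgeR adjusted p = 0.000171, under the fold limit). At an adjusted p below 0.05 alone, 4 genes of this list were higher and 3 lower. Without shNC replicate 1 CAT (-0.57) and SOD3 (-0.52) were both under the fold limit, and so was CAT without shBry replicate 2 (-0.58). CYBA, a subunit of NADPH oxidases, was at 266 and 352 CPM (0.40, adjusted p = 0.005, under the fold limit).

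**Figure D4:**
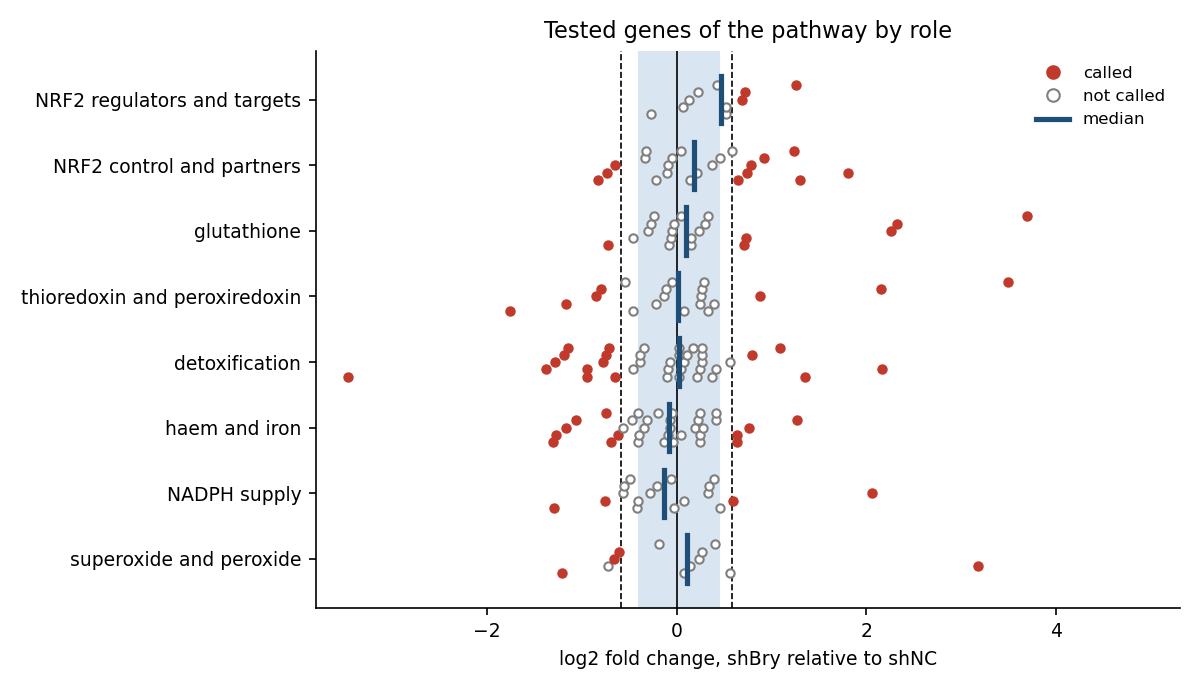
Log2 fold change (shBry relative to shNC) of every tested gene, with the 10 regulators and targets in the top row and the 7 other lists below. Filled points were called, bars are list medians, dashed lines mark a fold change of 1.5 and the band holds the middle 50 percent of all tested genes. The 10 have a median of 0.47 and no called fall, where 15.2% of all tested genes were called lower. The other medians lie between -0.13 and 0.18 with calls on both sides. Members and lists were chosen with earlier results of these data known.

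The genes whose pattern over the 6 libraries was most like that of NFE2L2 were sought among 9412 other tested genes that averaged 10 CPM or more, by the root mean square distance between log2 CPM centred on each gene's mean. The nearest were DCAF13 (distance 0.0206, log2 difference 0.72), TSEN15 (0.0251, 0.74) and GTF2F2 (0.0371, 0.69), none of which is a member or in the lists. This is a description over 6 libraries that form 2 groups, and each point of one gene shares its library with the others.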

How the data were processed

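RNA of 3 shBry and 3 shNC libraries was sequenced, and the authors deposited raw counts, whole numbers of reads per gene symbol with no normalization. The submitters' processing notes name HISAT2 2.0.4, HTSeq and GRCh38. The annotation and strand setting are not given in the sources used here. Samples were grouped by their labels.

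Low counts were removed by filterByExpr (minimum count 10), libraries were scaled with TMM, and groups were compared with edgeR 4.0.16 (glmQLFit, glmQLFTest) in R 4.3.3, after a trial on simulated counts. Each SE was derived from the log2 fold change and its F statistic. Levels are TMM-normalized CPM. Locations and exon lengths came from GENCODE 29 by symbol (47 of 47 genes), promoters from RefSeq.

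The members and lists were chosen with earlier results of these data known. Named were all members, FTL, BACH1 and, per list, the 2 largest called rises and falls among genes with at least 1 CPM and no overlap, and the most abundant gene not called. Of the other list genes named, MAFK, MAFG, SQSTM1, EP300, CAND1, SLC3A2, OPLAH, GLRX2, GSS, TXNRD2, PRDX2, AKR1A1, AKR1C1, AKR1C2, GSTM2, GSTM3, GSTM4, GSTO2, BLVRB, SLC25A37, CPOX, PPOX, ME1, ME3, CAT, SOD2, RBX1, BTRC, SYVN1, ALAS1, UROS, UROD and FECH were chosen after their values were seen. Alternatives were no TMM, DESeq2 1.42.0, limma-voom (limma 3.58.1), no filter, at least 10 counts in every library, a replicate block, leaving out each library, unadjusted p and other fold limits. ChIP-seq was not analysed here. Values of a few list genes are not reported here.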

Additional observations from a re-analysis of the deposited data

How the results depend on the processing

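Counts depended mainly on the fold limit. With a limit of 2, 2297 of all tested genes, 1 member and, in the order control and partners, glutathione, thioredoxin and peroxiredoxin, detoxification, haem and iron, NADPH supply, and superoxide and peroxide, 3, 3, 4, 8, 5, 2 and 2 genes were called. With no fold limit, 8139 genes and 7 members passed, and from glutathione on 12, 12, 23, 25, 14 and 7 genes. Leaving out single libraries gave 4587 to 5025 calls over all genes, 3 members each time, and 2 to 5 superoxide and peroxide genes, 2 of them without shNC replicate 1. The log2 difference of GPX4, not called, ranged from -0.13 to 0.018 over these fits and changed sign without shBry replicate 2, as did UROS (-0.14 to 0.057), and the cause was not tested. Over the 12 other fits, 5 to 7 members were higher at an adjusted p below 0.05 alone, with FTH1, HMOX1, NFE2L2, OSGIN1 and TXNRD1 in each, and KEAP1 was lower at that threshold in 8 of the 12, where the count of lower members had been 0. Every other count of calls, the members' calls and the 4 ratios kept their side of the threshold and their direction, or stayed within 1.5 times the count. The median of all tested genes lay between -0.02 and 0.04 in all fits.

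Same-numbered libraries correlated at 0.18, -0.08 and -0.03 in their deviations from group means. The highest correlation was 0.23, between shNC replicate 3 and shBry replicate 2. With 3 libraries a group, these values cannot decide whether replicate numbers pair the libraries. With a replicate block, 4914 genes and 3 members were called. Brachyury at 0 counts limits what the labels can be checked against, and the precision of each value rests on 3 libraries a group.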
